A study of Arabidopsis thaliana with 9 samples.

Results

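The comparison described here sets whole Arabidopsis thaliana plants exposed to 2,5-dichlorobiphenyl (2,5-DCB), a lightly chlorinated PCB congener, against plants that received only its solvent. It covers 16550 genes, each measured by 1 probe set on 6 of the 9 arrays of the series. A gene entered if the platform annotation paired a probe set with exactly 1 gene, and where several probe sets did so the brightest was kept. The whole value table held 38408 probe sets, and the tested genes made up 59.5% of the protein-coding genes in RefSeq.

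Plants of both groups were 21 days old at sampling and had spent those 21 days in closed boxes on nutrient medium with sucrose and agar, at 25 °C with 16 h of light and 8 h of dark. The exposed group had 2,5-DCB at 50 mg per L in the medium (n = 3 arrays), and the control group had the acetone carrier without it, a dose of 0 mg per L (n = 3 arrays). Each treatment used 6 boxes of 5 plantlets. No ecotype is given. Since nothing ties an array to particular boxes or plants, the p-values reflect array-to-array spread alone, and that spread may be technical.

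PCBs are persistent chlorinated aromatic compounds. Plants are known to handle such foreign molecules in steps: oxygenases such as cytochrome P450s add a reactive group, glycosyltransferases and glutathione transferases attach a sugar or glutathione, and transporters store the product in the vacuole or wall. Plants under chemical or biological stress commonly trade growth for defence, with fewer transcripts for photosynthesis and wall expansion and more for defence proteins and protein repair.

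The values are log2 signals, in which a difference of 1 is a doubling. Median signals of the 6 arrays lay between 4.695 and 4.775, and Pearson correlations across genes, which are not independent replicates, were at least 0.9851 within a group and 0.956 to 0.9739 between groups. The markers of shoot and root that could be checked were present: SBPASE, an enzyme of carbon fixation in leaves, averaged 10.4 in control plants, and PYK10, a root beta-glucosidase, averaged 10.6. The tested markers numbered only 2 of 9 for photosynthetic tissue and 2 of 13 for root. In whole plants a lower signal from a smaller share of a tissue and one from less RNA per cell cannot be told apart.

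Under 2,5-DCB, 765 genes were called higher (4.62% of those tested) and 947 lower (5.72%), together 1712 genes (10.3%) at an adjusted p under 0.05 in limma. Before adjustment, 4410 genes had a p under 0.05. Most differences were modest: 240 of the rises and 448 of the falls were at least 2-fold, and 48 rises and 71 falls at least 4-fold. The median change was 0.78 among called rises and -0.97 among called falls, against 0.04 over all tested genes. Genes with no overlap between the 3 exposed and 3 control arrays numbered 5133 (31.0%; 2788 or 16.8% higher and 2345 or 14.2% lower), and all 1712 called genes were among them. An exact permutation test of a single gene with 3 against 3 arrays cannot go below p = 0.1, so the calls rest on the spread that limma shares across genes.

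Single arrays weighed on these counts. Leaving out control replicate 1, 2 or 3 left 1110, 629 or 916 calls, and leaving out 2,5-DCB replicate 1, 2 or 3 left 1200, 537 or 761. No gene that was called in both the full fit and a reduced one changed direction. This was fixed in advance, since the groups did not overlap for any called gene. The calls made in all 6 such fits numbered 423 (2.56% of tested genes), of which 123 were higher and 300 lower. Below, a gene is described as stable when it belongs to these 423. Control replicate 2 lay farthest from the exposed arrays: it was the lowest control for 154 of the 240 called rises of at least 2-fold (64.2%) and the highest for 280 of the 448 such falls (62.5%), whereas it was the lowest control for 25.3% of all tested genes. Counts in gene groups are to be read beside the shares over all tested genes, 4.62% called higher and 5.72% lower. Apart from the plastid genome, the groups hold only genes matched by symbol or synonym, and 14757 tested genes are known here only by locus. Family members without a matching name are not counted, so the tested genes of a group are its matched genes. The gene groups below were chosen with results of these data known. Those of the NDH complex, the plastid genome, organic acid enzymes, RNA polymerases, RNA processing, beta-glucosidases, methionine sulfoxide reductases, bZIP factors, light signalling, response regulators, CLE and RALF peptides, glutamate receptors, SKU5 and NET proteins, epidermal patterning, NGATHA and YABBY factors, CHX exchangers and LCR peptides were drawn up after the values had been seen, and their counts are descriptions.

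The share of genes called differed with signal level. Among 4 classes of equal size, 0.87% of genes were called in the dimmest, with mean signals of 1.38 to 2.91, 8.03% and 14.67% in the middle classes and 17.81% in the brightest, from 6.44 to 13.89. The brightest class held 439 falls against 298 rises, and the dimmest 12 falls against 24 rises. The median SD over 3 control arrays was 0.174 in the dimmest class, 0.214 and 0.157 in the middle classes and 0.115 in the brightest. Of the calls in the brightest class 27.4% were stable, against 8.3% in the dimmest. For 103 called genes at least 1 group mean was dim, that is under the 25th percentile of its group (2.889 in control and 2.906 under 2,5-DCB), and the size of their change is uncertain.

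**Figure D1:**
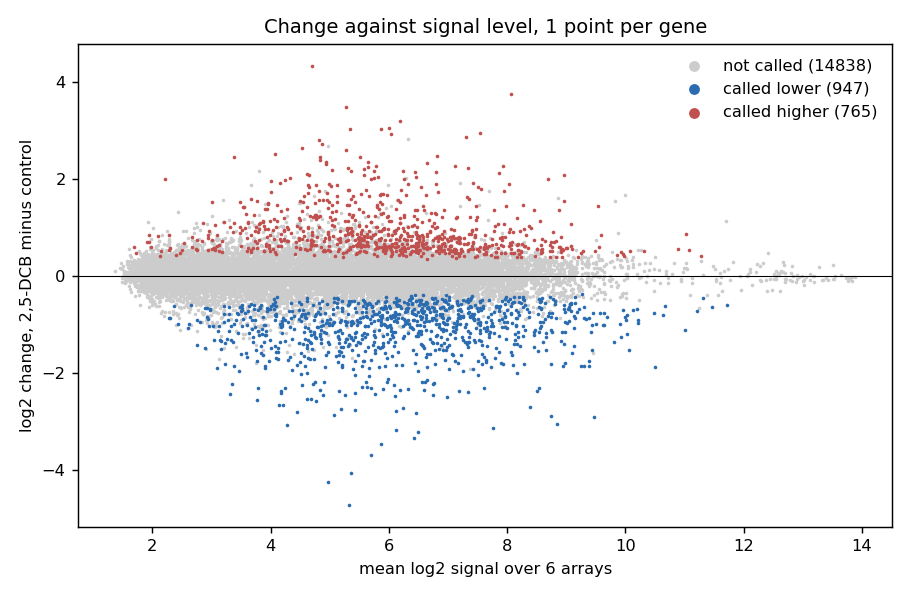
The log2 change (2,5-DCB minus control, vertical axis) is plotted against the mean log2 signal over 6 arrays (horizontal axis), with 1 point per gene. Called genes (765 higher in red, 947 lower in blue) are few at the dim left side, where 0.87% of genes below a mean signal of 2.91 was called.

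**Figure D2:**
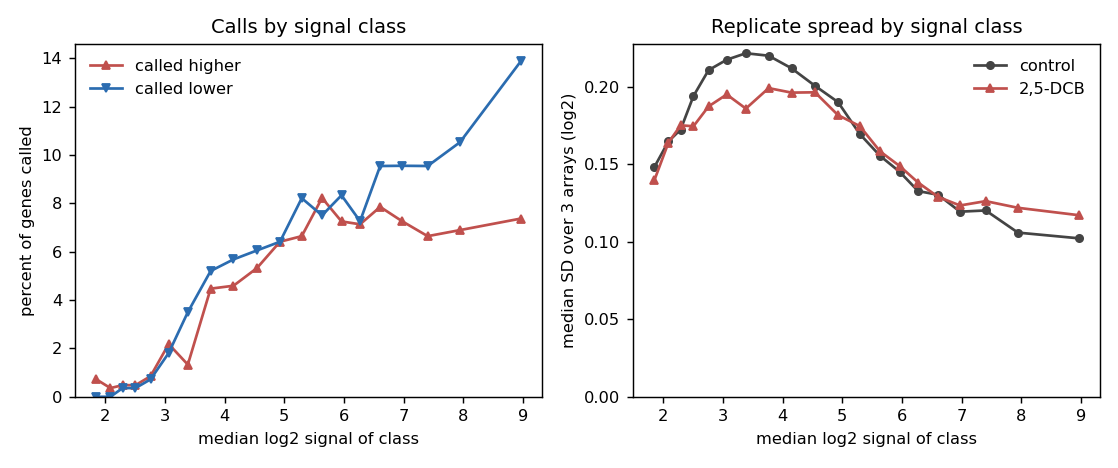
Genes were split by mean log2 signal into 20 classes of equal size, and each point is 1 class at its median signal. The left panel gives the percent of genes called higher or lower, which reached 7.37% and 13.89% in the brightest class. The right panel gives the median SD over 3 arrays of each group, which was 0.1022 (control) and 0.1171 (2,5-DCB) in that class.

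Some nuclear genes for the light reactions fell. Of 10 tested genes of the light-harvesting complexes, photosystems and chloroplast ATP synthase, 4 were called lower and 0 higher, with a median change of -0.58, and the background for a fall is 5.72%. These genes were bright (median signal 9.33), and in the brightest of the 20 signal classes 13.89% of genes were called lower. PSAN, a luminal subunit of photosystem I, had signals of 10.47, 10.34 and 10.40 on the control arrays (replicates 1 to 3) and 9.65, 9.41 and 9.19 on the 2,5-DCB arrays. LHCB4.2, a minor antenna protein of photosystem II, had 9.39, 9.53 and 9.45 against 8.74, 8.27 and 8.53. In both genes every exposed array lay well below every control array, and PSAN fell by 0.99 (SE 0.14, limma adjusted p 0.0088) and LHCB4.2 by 0.95 (SE 0.14, limma adjusted p 0.0112) on the log2 scale. PSAE-1 fell by 0.63 and ATPC1, the gamma subunit of the ATP synthase, by 0.54. PSAN and LHCB4.2 were stable, and the count was 2 without control replicate 1 or 2 or 2,5-DCB replicate 2 or 3, and 6 without 2,5-DCB replicate 1. LHB1B2 (-0.64) and LHCB4.1 (-0.50) did not pass, with adjusted p-values of 0.0603 and 0.0731.

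The chloroplast NDH complex, which passes electrons around photosystem I, had 3 of 9 tested nuclear subunits and assembly factors lower and 0 higher (median -0.26), beside the background of 5.72% for a fall, in a list drawn up after the values had been seen. NdhU had 6.52, 6.71 and 6.33 in control and 5.57, 5.46 and 5.50 under 2,5-DCB, and fell by 1.01 (SE 0.12, limma adjusted p 0.00618). NdhN fell by 0.75 and NdhL by 0.70. The groups did not overlap for any of these genes, and NdhU and NdhN were stable while NdhL was called in 1 of the 6 reduced fits. CaS, a thylakoid protein of calcium signalling, fell by 1.26 and was stable, and PORB, which makes chlorophyllide in the light, fell by 0.72 and was stable.

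Carbon fixation and photorespiration had 3 of 5 tested genes lower and 0 higher (median -0.80), at a median signal of 9.65. The share called lower was 5.72% over all tested genes and 13.89% in the brightest of the 20 signal classes. PRK, the kinase that forms the CO2 acceptor, had 10.27, 9.96 and 9.80 in control and 9.14, 8.50 and 8.90 under 2,5-DCB, and fell by 1.16 (SE 0.20, limma adjusted p 0.0169). HPR, the peroxisomal hydroxypyruvate reductase of photorespiration, fell by 1.01, and SBPASE fell by 0.80. None of the 3 was stable, and the count was 0 without control replicate 2 or 2,5-DCB replicate 2. TRXF2, a thioredoxin that switches on Calvin cycle enzymes in the light, fell by 1.14 (called in 2 of 6 reduced fits). RCA, the activase of Rubisco, was lower on all 3 exposed arrays, at -0.39, and did not pass (adjusted p 0.100).

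Genes carried by the plastid genome itself gave no call. None of the 63 tested was called in limma, their changes ran from -0.40 to 0.39, and their median change was -0.04 at a median signal of 12.89, near the top of the scale. The smallest adjusted p among them was 0.0993, and 5 had an unadjusted p under 0.05.

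Some enzymes of the citric acid cycle and linked organic acids rose. Of 18 tested genes, a list drawn up after the values had been seen, 6 were called higher and 0 lower (median 0.41), against a background of 4.62% for a rise. PPDK, which makes phosphoenolpyruvate from pyruvate, had 6.88, 6.84 and 6.91 in control and 8.28, 7.99 and 8.02 under 2,5-DCB. The control arrays were within 0.1 of each other and the exposed arrays all lay above them, and PPDK rose by 1.22 (SE 0.11, limma adjusted p 0.0031). IDH-VI, a subunit of mitochondrial isocitrate dehydrogenase, rose by 0.75, and SDH1-1, the flavoprotein of succinate dehydrogenase, by 0.73. These 3 were stable. Smaller rises were those of the cytosolic isocitrate dehydrogenase cICDH (0.51), the plastid malate dehydrogenase listed as MDH (0.53) and the formate dehydrogenase FDH (0.47), none of them stable. The count was 3 without control replicate 1 or 2 or 2,5-DCB replicate 2 or 3. ICL, the isocitrate lyase of the glyoxylate cycle, had the largest value of the group, 1.44, and did not pass (adjusted p 0.0750).

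RNA polymerase genes rose in part. Of 17 tested subunits of the nuclear RNA polymerases, 5 were called higher and 0 lower (median 0.22). The background for a rise is 4.62%. The 5 were NRPA1 and NRPA2, the largest subunits of RNA polymerase I, which transcribes ribosomal RNA, NRPC1 and NRPC2, the largest subunits of RNA polymerase III, which transcribes transfer RNA and 5S RNA, and NRPB12, a small shared subunit. NRPA2 had 7.27, 7.30 and 7.0 in control and 8.30, 7.99 and 7.87 under 2,5-DCB, a rise of 0.86 (SE 0.15, limma adjusted p 0.0182). NRPC1 had 6.20, 6.03 and 6.22 against 6.79, 6.87 and 6.86, a rise of 0.69 (SE 0.10, limma adjusted p 0.0108). The groups did not overlap for either gene. NRPC2 rose by 0.82, NRPA1 by 0.74 and NRPB12 by 0.69. Only NRPC1 of the 5 was stable, and the count was 2 without control replicate 2 and 1 without 2,5-DCB replicate 2. The list was drawn up after these values had been seen.

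Among 19 genes of ribosome assembly and RNA processing, a list likewise drawn up afterwards, 4 were higher and 0 lower (median 0.19, background 4.62%). They were TRZ3, a tRNA 3′ processing enzyme (1.23), YAO (0.66), the RNA helicase PRH75 (0.57) and IMP4 (0.51), the last 3 nucleolar proteins of ribosome assembly. None was stable, and the count was 0 without control replicate 2. Of single genes outside the lists, chosen after their values were seen, PYRB, aspartate carbamoyltransferase of pyrimidine synthesis, rose by 0.55 and FAC1, AMP deaminase, by 0.57, each called in 2 of 6 reduced fits.

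Of 5 tested genes of ER (endoplasmic reticulum) chaperones and the ER stress response 2 were higher and 1 lower, and the count was 0 without control replicate 2 or 3 or 2,5-DCB replicate 2. BIP1, an Hsp70 of the ER, had 4.37, 3.67 and 4.37 in control and 5.05, 5.36 and 4.99 under 2,5-DCB, and rose by 1.00 (SE 0.22, limma adjusted p 0.0340). The lowest control array, replicate 2, widens that spread, and the call was lost in all 6 reduced fits. ATERDJ3B, its J-domain partner, rose by 0.91. BZIP60, the membrane-bound transcription factor of the ER stress response, fell by 0.85. Further chaperone genes are single genes outside the lists, chosen after their values were seen. The mitochondrial J protein gene ATJ1 rose by 0.86 and was stable. The ER calreticulin gene CRT1b rose by 0.54. The Hsp70 exchange factor Fes1A rose by 1.01 and the small chaperone BOB1 by 0.68, and neither was stable.

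**Figure D3:**
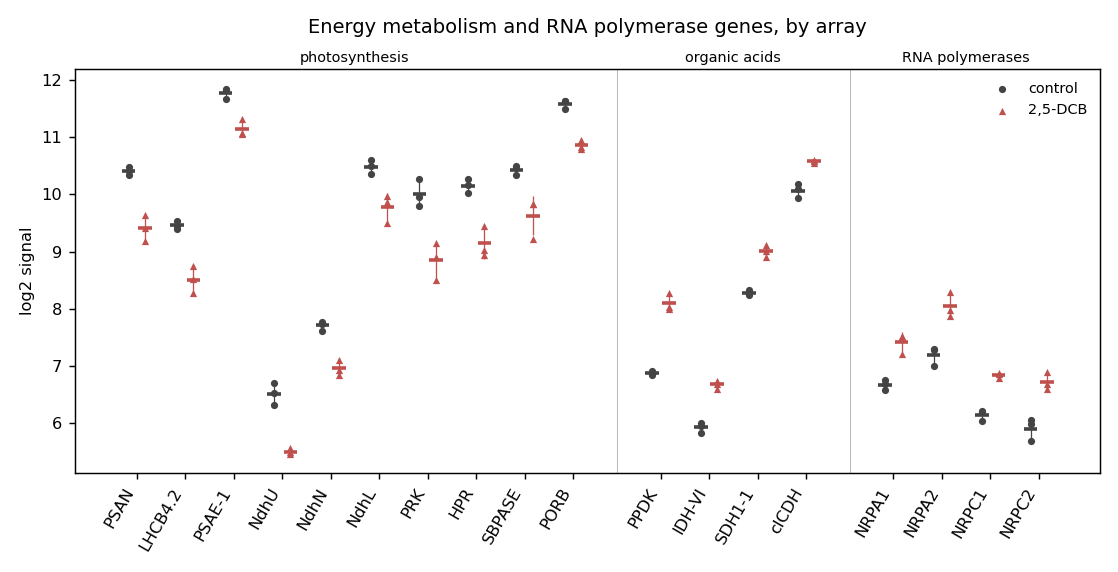
Log2 signals of genes of photosynthesis, organic acid enzymes and RNA polymerase subunits are shown for the 3 control arrays (grey circles) and the 3 2,5-DCB arrays (red triangles), with the mean (horizontal bar) and SD (vertical line). All photosynthesis genes shown lie lower and all organic acid and polymerase genes higher under 2,5-DCB, with no overlap of the groups. Only called genes are shown, so the shared direction and the lack of overlap follow from that choice. Members of these groups that were not called are left out.

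Defence protein genes were among the largest rises, and many of them were uneven among the control plants. CHI, a chitinase-type gene, had 7.80, 4.45 and 6.29 in control and 9.59, 9.79 and 10.46 under 2,5-DCB. PDF1.2, an antifungal plant defensin under jasmonate and ethylene control, had 5.82, 3.07 and 4.85 against 8.81, 7.17 and 7.40. In both genes control replicate 2 was lowest and the control arrays spanned more than 2 units, while the exposed arrays were all higher. CHI rose by 3.77 (SE 0.77, limma adjusted p 0.0288) and was called in 2 of 6 reduced fits. PDF1.2 rose by 3.21 (SE 0.74, limma adjusted p 0.0401) and was called in 1 of 6. Without control replicate 2 the changes were 2.90 (limma adjusted p 0.0448) and 2.45 (limma adjusted p 0.0798). Close copies such as PDF1.2 and PDF1.2b may share probes, and their signals cannot be separated here.

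Other defence genes differed in their spread. PDF1.4, another defensin gene, had 4.05, 3.15 and 4.71 in control and 6.63, 6.39 and 6.69 under 2,5-DCB, a rise of 2.60 (SE 0.36, limma adjusted p 0.00907) that was stable. ChiC, a class V chitinase, rose by only 0.74, with control values of 6.04, 5.85 and 5.89 and exposed values of 6.69, 6.61 and 6.70, and was stable (SE 0.10, limma adjusted p 0.00801). The control arrays of PDF1.4 were widely spread (SD 0.78, n = 3), with replicate 2 lowest, and those of ChiC lay close together. Of 13 tested defensin, thionin and pathogenesis-related genes 3 were higher (PDF1.2, PDF1.4 and PDF2.5, at 1.10) and 2 lower (THI2.2, a thionin, at -1.59 and PDF1.5 at -0.70), with a median of 0.43. The count was 1 without 2,5-DCB replicate 2 or 3. The osmotin-type gene OSM34 rose by 2.01 and the subtilase gene SBT3.3, known for its part in immune priming, by 2.04, neither stable. Jacalin-type lectins, sugar-binding proteins, had 2 of 5 higher and 0 lower: JAL31 (0.81, stable) and JAL34 (0.68).

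The 7 class III peroxidases matched by name, secreted enzymes that act on wall phenolics and hydrogen peroxide, included 2 rises and 0 falls. PRX52 had 4.54, 4.36 and 4.39 in control and 6.57, 6.0 and 6.06 under 2,5-DCB, a rise of 1.78 (SE 0.17, limma adjusted p 0.00313). Prx37 had 5.96, 5.69 and 5.98 against 8.17, 8.68 and 9.38, a rise of 2.87. Both sets of control arrays were close together, and both genes were stable. PRXCA, at 0.64, did not pass (adjusted p 0.0637). CCOAMT, a caffeoyl-CoA methyltransferase-type gene of the phenylpropanoid pathway, rose by 2.64 and was stable.

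Conjugating enzymes were represented by the UDP-glycosyltransferases (UGTs), which move sugars onto small molecules. Of 54 UGT genes matched by name 8 were higher and 0 lower, with a median change of 0.16, against a background of 4.62% for a rise. The share called in either direction was 14.8%, beside 10.3% over all tested genes. UGT genes known only by locus were not counted. UGT76B1, which acts on salicylic acid and isoleucic acid, had 5.46, 5.42 and 5.27 in control and 7.39, 7.13 and 7.31 under 2,5-DCB. Its arrays were close together in both groups, and its rise of 1.90 (SE 0.11, limma adjusted p 0.0015) was among the 5 rises of smallest p. UGT84A3, which glucosylates hydroxycinnamates, rose by 1.18 and UGT73B4 by 1.49, and these 3 were the stable members. UGT72E2, a monolignol glucosyltransferase, had 4.49, 2.96 and 3.48 in control and 5.63, 6.10 and 6.38 under 2,5-DCB. Its control arrays spanned more than 1 unit with replicate 2 lowest, and its rise of 2.39 (SE 0.39, limma adjusted p 0.0154) was called in 3 of 6 reduced fits. UGT87A2 (2.09), UGT73B2 (1.42), UGT73B5 (1.17) and UGT73B1 (0.71) also rose, and probes for the similar UGT73B genes may cross-react. The UGT count was 5 without control replicate 2 or 3 or 2,5-DCB replicate 3, and 3 without 2,5-DCB replicate 2.

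In the other classical detoxification families few of the matched genes were called. Of 26 cytochrome P450 genes matched by name, most of the CYP71B subfamily, 2 were higher and 1 lower (median 0.03). CYP71B6 had 6.22, 6.05 and 6.19 in control and 7.29, 7.28 and 7.72 under 2,5-DCB, a stable rise of 1.28 (SE 0.15, limma adjusted p 0.00542). CYP71B23 rose by 2.14 over a control spread of 4.25 to 6.04, and CYP78A9 fell by 0.45. Of 15 glutathione transferases 0 were called higher and 1 lower, GSTU18 at -1.05, with a median of -0.04. GSTF3 had the largest positive value, 1.11, and did not pass (adjusted p 0.0704). The shares called in both lists, 3 of 26 and 1 of 15, were near the background of 10.3%. Members of these families without a matching name were not counted, so the lists do not describe the whole families. FMO, a flavin-containing monooxygenase gene, rose by 1.45 and was called in 2 of 6 reduced fits.

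Redox and repair genes were mixed. CCS, the copper chaperone of copper/zinc superoxide dismutase, had 6.95, 6.68 and 6.75 in control and 9.05, 9.23 and 8.50 under 2,5-DCB, a stable rise of 2.13 (SE 0.20, limma adjusted p 0.0031). Methionine sulfoxide reductases, which repair oxidised methionine, had 2 of 7 higher and 1 lower: MSRB9 (2.14), MSRB8 (2.02) and MSRB6 (-0.89, dim under 2,5-DCB), none stable. The glutathione reductase gene GR1 rose by 0.49 and the thylakoid ascorbate peroxidase gene TAPX fell by 0.89. Of 10 aldehyde dehydrogenases and related reductases, ALDH2C4 (0.86) and ALDH7B4 (0.81) rose while AOR, a chloroplast reductase of reactive carbonyls, fell by 0.95 and ALDH11A3 by 0.91. YLS5, a gene first described in yellowing leaves, rose by 2.27 and was stable.

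Beta-glucosidases, which release active compounds from stored glucosides, also split. Of 23 tested, 4 were higher and 3 lower (median 0.04), and none was stable. The rises were those of PYK10 (0.88), BGLU21 (1.68), BGLU22 (1.13) and BGLU45 (1.38). PYK10, BGLU21 and BGLU22 are known from the ER bodies of roots, and BGLU21 and BGLU22 lie side by side and are similar in sequence. The falls were those of BGLU47 (-1.25), BGLU40 (-0.90) and BGLU33 (-0.83). The count was 0 without 2,5-DCB replicate 2. PYK10 is also the called root marker: the other tested root marker, EXPA7, stood at 0.43 and did not pass (adjusted p 0.0726), while SBPASE of the 2 tested leaf markers fell. The part of the balance of shoot and root in these results was not tested.

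Several genes of jasmonate, calcium and immune signalling were called lower, given here as single genes. ORA47, an ERF transcription factor of jasmonate synthesis, had 9.03, 9.76 and 9.20 in control and 6.49, 5.54 and 6.56 under 2,5-DCB, and fell by 3.14 (SE 0.31, limma adjusted p 0.00356). OPCL1, a CoA ligase of jasmonate synthesis, had 9.89, 10.12 and 9.59 against 7.84, 7.95 and 8.46, and fell by 1.78 (SE 0.21, limma adjusted p 0.00549). Both were stable, and no exposed array came within 1 unit of a control array. The calmodulin-like gene CML38 fell by 1.96 (SE 0.14, limma adjusted p 0.0018), and STZ, a zinc finger repressor of stress responses, fell by 0.76 from a bright 10.9 ± 0.0355 (SD, n = 3). WRKY22, a transcription factor of early immune signalling, fell by 1.76, the kinase gene PTI1-4 by 1.60 and SRC2, a C2-domain protein gene, by 1.40. All of CML38, STZ, WRKY22, PTI1-4 and SRC2 were stable.

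Members of these families also rose. Of 3 tested ERF and DREB genes 1 was lower, ORA47, and 1 higher, DREB2C (1.53, dim in control, called in 2 of 6 reduced fits). The 1 tested gene of the jasmonate list was not called (0.23, dim in both groups). Of 6 tested calmodulin-like and calcium-dependent kinase genes 1 was higher, CML41, at 2.36 and stable, and 2 lower, CML38 and CML37 (-0.87). Of 7 WRKY genes 2 were higher and 1 lower: WRKY6, a factor of senescence and defence, had 7.39, 6.73 and 7.12 in control and 8.82, 8.78 and 9.32 under 2,5-DCB, a stable rise of 1.90 (SE 0.22, limma adjusted p 0.00539). WRKY47 rose by 1.16 and was not stable. Of 20 bZIP genes 0 were higher and 3 lower, BZIP34 (-1.76, stable), BZIP61 (-1.12) and BZIP60. The bZIP share called was 15.0%, beside 10.3% over all tested genes.

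Of 16 U-box and ATL-type ubiquitin ligases 4 were lower and 0 higher, against a background of 5.72% for a fall. PUB19, a negative regulator of drought responses, had 8.03, 8.19 and 6.84 in control and 2.89, 2.75 and 3.28 under 2,5-DCB, and fell by 4.71 (SE 0.36, limma adjusted p 0.00206). Of its 3 exposed arrays 2 lie under the dim limit of 2.906 and the mean of the 3, 2.97, is just above it, so the size of this fall is uncertain. PUB23, which dampens immune signalling with PUB22, had 9.33, 9.31 and 9.26 against 8.15, 7.95 and 8.50, and fell by 1.10 (SE 0.15, limma adjusted p 0.00886). PUB19 and PUB23 were stable. PUB22 (-0.55) and PUB26 (-0.51) were called with little room, at adjusted p-values of 0.0457 each, and the count was 2 without any one of control replicates 2 and 3 and the 3 exposed arrays.

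Dehydrin, late embryogenesis abundant and cold-regulated genes, which protect cells against water loss and freezing, were called lower in 6 of 12 cases and higher in 0 (median -1.31). The background for a fall is 5.72%. KIN2 had 10.37, 10.31 and 9.88 in control and 7.01, 7.08 and 7.84 under 2,5-DCB, and fell by 2.88 (SE 0.25, limma adjusted p 0.00304). COR47, a dehydrin, had 10.64, 10.98 and 10.85 against 9.51, 9.27 and 9.14. COR15A, COR15B, LEA and KIN1 were the others, and all of the 6 but KIN1 were stable. KIN1 is dim under 2,5-DCB, and the size of its change (-1.50) is uncertain, and COR15A with COR15B and KIN1 with KIN2 are close copies. The remaining members were not called, among them COR27 at 0.30 (adjusted p 0.675).

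Light and shade signalling had 5 of 10 tested genes lower and 1 higher, against backgrounds of 5.72% for a fall and 4.62% for a rise. IAA29, an Aux/IAA repressor induced by shade, had 6.93, 7.35 and 6.89 in control and 5.40, 4.59 and 4.22 under 2,5-DCB, and fell by 2.32 (SE 0.30, limma adjusted p 0.0074). AFR, an F-box protein of far-red signalling, had 7.40, 7.40 and 7.21 against 6.05, 5.46 and 6.06, and fell by 1.48. Both genes were stable and separated by more than 1 unit between groups. FHL, which carries phytochrome A into the nucleus, fell by 1.28, the shade factor PIF7 by 0.69 and the homeobox gene HAT2 by 0.65. LSH5 rose by 0.74. The count was 2 without 2,5-DCB replicate 2.

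Among 18 auxin genes 2 were lower and 0 higher, a share of 11.1% near the background of 10.3% for a call in either direction. They were IAA29 and WES1, a GH3 enzyme that conjugates auxin to amino acids, which fell by 1.52 and was stable. PLS, which encodes a small peptide of root growth, fell by 1.01 and was stable. RR18, a type-B response regulator of cytokinin signalling, fell by 2.17 and was stable. The gibberellin receptor gene GID1B rose by 0.86 and lost its call in all 6 reduced fits. Of 35 CLE and RALF peptide hormone genes 4 were lower and 0 higher (RALFL22, CLE42, RALFL33 and CLE40, from -0.94 to -0.63), none stable, and their share of 11.4% is also near that background. Glutamate receptor-like channel genes had GLR2.7 higher (1.21) and GLR3.6 lower (-0.94) among 10 tested.

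Wall genes included falls and rises. Of 36 genes of cellulose and xylan synthesis and wall acetylation 5 were lower and 1 higher (median -0.23). Their share called was 16.7%, beside 10.3% over all tested genes. TBL28, of the wall acetylation family, had 7.51, 7.99 and 7.62 in control and 5.99, 6.36 and 6.39 under 2,5-DCB, and fell by 1.46 (SE 0.17, limma adjusted p 0.00566), a stable call. TBL30 fell by 1.30, AT5G06700 by 0.75, CSLC04, which makes the xyloglucan backbone, by 0.76 and TBL45 by 0.66. CSLB03, a cellulose synthase-like gene, went the other way, from 3.59, 3.53 and 3.66 to 5.02, 5.25 and 4.66, a stable rise of 1.38 (SE 0.16, limma adjusted p 0.00545). The count was 3 without 2,5-DCB replicate 2 and 9 at most. Of 4 tested SKU5 family genes, which encode wall-associated proteins, 2 were higher and 0 lower (median 0.31), sks16 (1.03, stable) and sks15 (0.92). As related copies these may share probes.

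Expansins and xyloglucan hydrolases had 4 of 32 lower and 0 higher with a median of 0.02, close to the 0.04 over all tested genes. Their share called was 12.5%, and the background is 10.3% for a call in either direction and 5.72% for a fall. EXPA8 (-2.31), EXPB1 (-1.60), EXLA1 (-1.0) and EXPA20 (-0.82) fell, none of them stable, and the count was 1 without control replicate 2 or 2,5-DCB replicate 2. Microtubule-linked IQD and TRM proteins and tubulins had 5 of 38 lower and 0 higher (median -0.21, 13.2% called beside that 10.3%). The count was 0 without 2,5-DCB replicate 2. The 5 falls were those of iqd21 (-1.25), IQD22 (-1.05), IQD24 (-0.73), TUB5 (-0.65) and IQD28 (-0.59). Of 9 NET actin-binding protein genes 2 were lower and 0 higher (median 0.03), NET4B (-0.81, stable) and NET1B (-0.49). ACT11, an actin gene, fell by 1.29 and the myosin gene XIC by 1.08 (stable), both single genes chosen after their values were seen.

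Epidermal patterning had 2 of 7 lower and 0 higher. TRY, a small MYB repressor of trichome formation, had 5.45, 5.64 and 5.28 in control and 4.55, 4.05 and 4.07 under 2,5-DCB, and fell by 1.23 (SE 0.17, limma adjusted p 0.00916), a stable call. STOMAGEN, a peptide that promotes stomata, fell by 1.21 and was called in 4 of 6 reduced fits. NGA1 (-0.50) and NGA2 (-0.66), regulators of leaf and flower shape, were the 2 falls among 7 NGATHA and YABBY genes, neither stable.

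**Figure D4:**
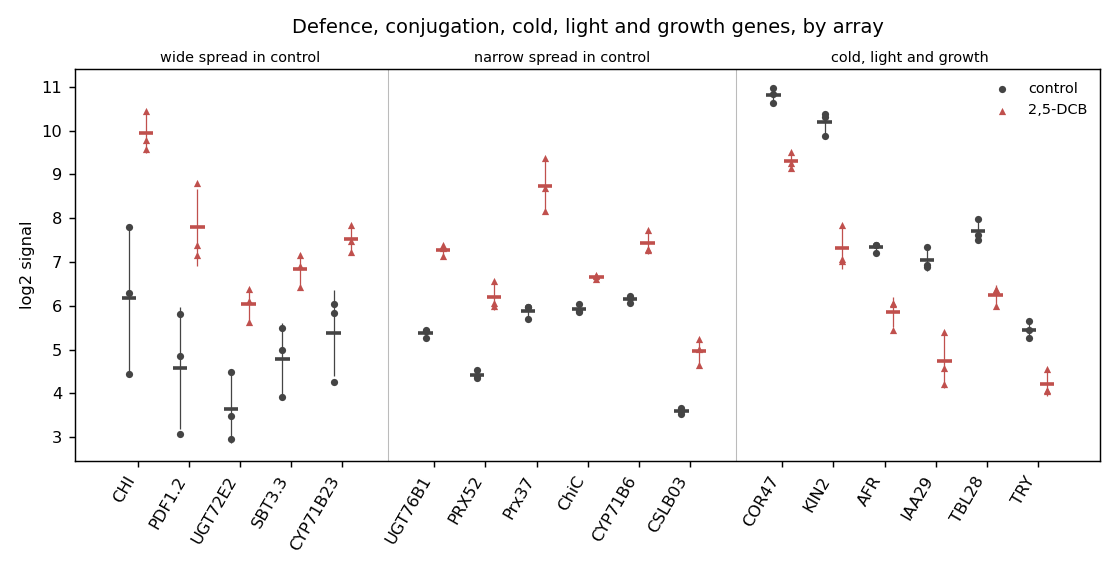
Log2 signals of defence, conjugation, cold, light and growth genes on the 3 control arrays (grey circles) and the 3 2,5-DCB arrays (red triangles), with the mean (horizontal bar) and SD (vertical line). Genes on the left, such as CHI (control SD 1.68), vary widely among control arrays, and those in the middle, such as ChiC (control SD 0.1), do not.

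Transport genes showed single changes. Of 17 sugar transporters TMT1, which loads sugar into the vacuole, rose (0.53), and SWEET13 (-1.24) and SWEET16 (-0.99) fell, none of them stable. SFP1, a sugar carrier-type gene outside that list, rose by 0.70. NAXT1, a nitrate exporter of the root, fell by 1.07 (SE 0.13, limma adjusted p 0.00632) and was stable, and GTR1, a glucosinolate importer, fell by 1.32. CHX16, a cation/proton exchanger, rose by 2.00 as the only call among 9, a share of 11.1% near the 10.3% over all tested genes.

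Several groups held no call in limma, although 0 called does not show that they were unaffected. They included 7 flavonoid genes (2 with an unadjusted p under 0.05), 10 autophagy genes (4), 7 histone genes (1), 9 metal homeostasis genes (4) and 8 genes of starch and sucrose metabolism (1). The flavonoid gene nearest to a call was UGT78D1, a flavonol rhamnosyltransferase, at -0.38 (adjusted p 0.0885), and all 7 flavonoid values were below 0. The 75 tested LCR and SCRL peptide genes, defensin-like peptides mostly of reproductive tissues, had a median signal of 2.17 and 2 falls, of which LCR54 (-2.54) was stable and LCR36 (-0.87) was dim in both groups. The share called among these 75 was 2.7%, below the 10.3% over all tested genes. Seed and flower markers were few: the seed storage gene PAP85 rose from 3.77, 3.76 and 3.79 to 6.06, 5.02 and 5.37 (1.71, SE 0.25, limma adjusted p 0.0111), while the pollen and tapetum genes VGD1 (-1.13) and AMS (-0.84) did not pass, at adjusted p-values of 0.0514 and 0.351.

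**Figure D5:**
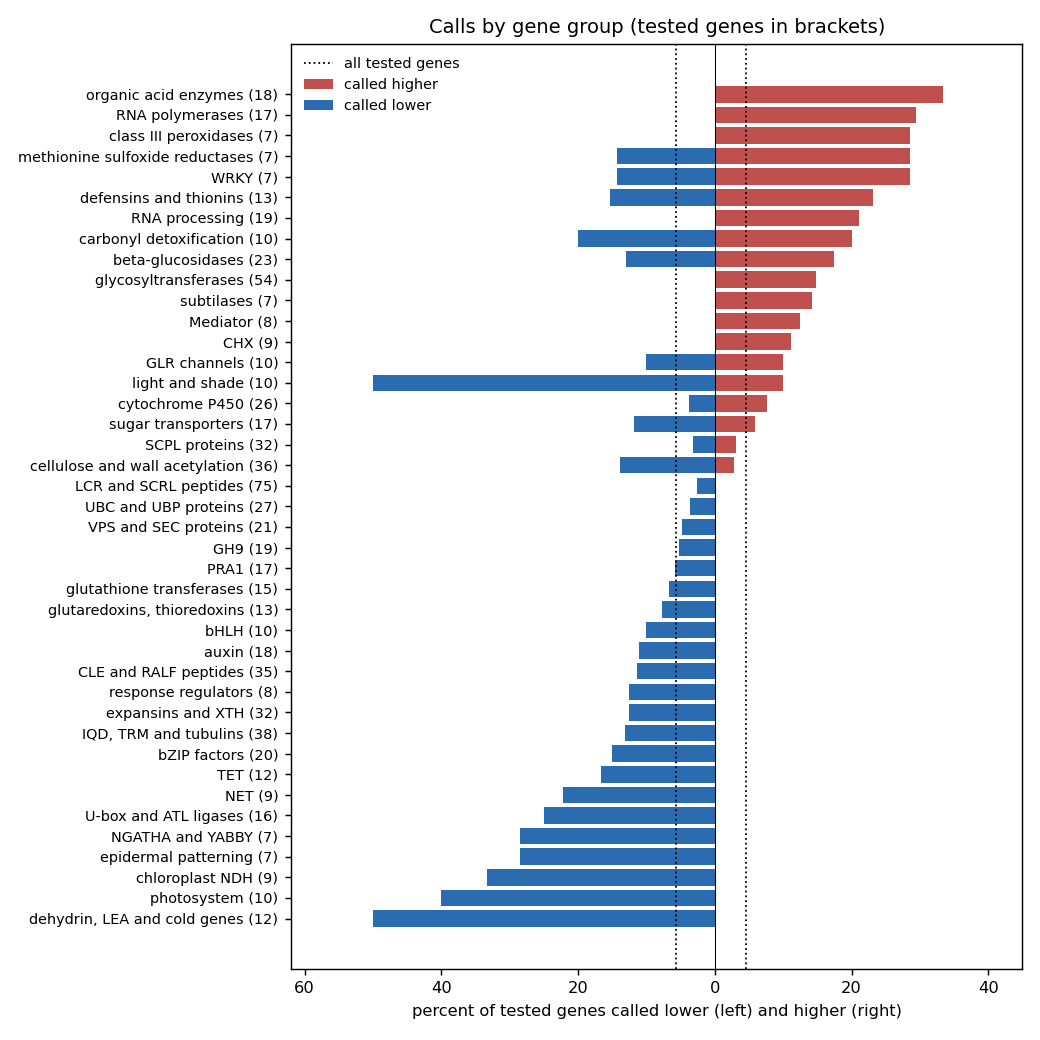
Bars give the percent of tested genes called higher (right) and lower (left) in gene groups with at least 7 tested genes and at least 1 call, and dotted lines mark the same shares over all 16550 tested genes (4.62% and 5.72%). Photosystem, NDH and cold genes extend to the left only, and organic acid and RNA polymerase genes to the right only.

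Most called genes carry no name beyond their locus. Of 1793 tested genes with a symbol 227 were called (12.7%), and of 14757 known here only by locus 10.1% were called. The smallest adjusted p of the comparison, 0.000591, belonged to the falls of AT1G80865, from 7.50, 7.58 and 7.09 to 3.16, 3.35 and 3.47, and of AT5G13181, which is dim under 2,5-DCB. AT1G30700 (1.86) and AT5G23830 (1.89) rose with the exposed arrays of each within about 0.1 of each other, and both were stable. Among bright genes AT4G34150 fell by 1.11 from a control mean of 11.6 and was stable, while the rise of AT2G25450, from 11.10, 11.01 and 11.10 to 11.42, 11.49 and 11.52, was only 0.41 and lost its call in all 6 reduced fits.

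A change of at least 2-fold was not called in 138 genes, which the test itself leaves uncalled where replicates differ widely. Their median SD was 0.621 in control and 0.542 under 2,5-DCB, against 0.158 in both groups over all genes. Wide spread also occurred without a difference between groups: AT3G01345 had 8.41, 4.19 and 4.28 in control and 3.96, 4.31 and 8.48 under 2,5-DCB. A single array of each group was high, control replicate 1 and 2,5-DCB replicate 3, and the group means were nearly equal (-0.04). AT5G37970, one of the 138, had 2.94, 7.38 and 7.19 against 4.39, 3.11 and 5.66, where control replicate 1 was low and the groups overlapped. An SD above 1 in the control group was found for 71 genes, with control replicate 1 farthest out in 32 and replicate 2 in 29, and under 2,5-DCB for 37 genes, with replicate 1 farthest out in 21.

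Called genes tended to have called neighbours on the chromosome, as RefSeq orders the genes. The next gene was called higher for 43 of 483 called rises with a tested neighbour (8.9%), and over all neighbouring pairs for 4.59%. For falls the figures were 97 of 547 (17.7%) and 5.41%. Runs of at least 3 neighbours called in 1 direction numbered 13, of which 10 were lower. The locus numbers AT3G15750 to AT3G15780 on chromosome 3 gave a run of 4 falls, from -1.84 to -1.02, all stable, and AT4G27652, AT4G27654 and AT4G27657 on chromosome 4 fell by 1.41, 2.87 and 2.38. NAXT1 and its neighbours AT3G45660 and AT3G45670 fell together, and CHI, AT2G43580 and AT2G43590 rose together. Neighbouring copies of a gene can share probes, which these data cannot separate from separate changes.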

How the data were processed

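The authors deposited log2 signals for every probe set on each array. Per the submitters' processing notes these came from Affymetrix Expression Console. The sources used here do not give its version, background correction, summarization or genome build, so no coordinates are printed. No further normalization was applied. The table had 0 missing values. The platform annotation listed 17481 of 38408 probe sets: 16722 with 1 gene, 759 with several (not used), and 20927 were unnamed here. RefSeq (TAIR10.1) matched 16411 of the 16550 genes and gave names and gene order. No sequences were used.

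Only the 3 control and 3 2,5-DCB arrays were fitted, using lmFit and eBayes of limma 3.58.1 under R 4.3.3, two-sided, with Benjamini-Hochberg adjustment over all tested genes. The number of arrays limits the precision. The fit was tested on simulated data: 51 of 67 genes changed by 1 on the log2 scale, 67 of 67 changed by 2 and 66 of 66 changed by 3 were recovered, with 10 false calls. The simulated noise was normal, independent between genes and arrays, and scaled by the variances of the fit. It held no effect shared across an array, so the test checks the code and not the reliability of the calls.

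Gene groups were matched by symbol or synonym, and 1002 tested genes fell into 84 lists. The genes, the lists and the comparison were chosen with earlier results of these data known, and 26 lists were added after the values were seen. Results of some lists are not reported here. The named genes are the 8 largest called changes per direction with both means above the 25th percentile, the 5 of smallest p, the 6 brightest, up to 4 called per direction from each list, and the 4 of largest SD per group, plus called genes with a symbol that were chosen after their values were seen. Alternatives were quantile normalization, median centring, filters on dim genes, all probe sets, trend and robust eBayes, array weights, a 2-fold minimum, the replicate number as a block, and leaving out each array.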

Additional observations from a re-analysis of the deposited data

How the results depend on the processing

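The count of 1712 calls (765 higher, 947 lower) stayed within 1.5 times of itself after quantile normalization (1863), median centring (1799), filters on dim genes at the 25th (2002) and 50th percentile (2008), trend and robust eBayes (2100), array weights (1777) and all probe sets with 1 gene (1725). With all 38408 probe sets it was 2868 (1430 higher, 1438 lower), of which 1727 are unnamed here. A 2-fold minimum left 688 (240 higher, 448 lower). Leaving out 1 array gave 537 to 1200 calls, 179 to 519 higher and 358 to 681 lower; these fits have fewer arrays. With the replicate number as a block the count was 981 (368 higher, 613 lower), and 887 of these were among the 1712. The numbers do not pair the arrays: deviations of same-numbered arrays correlated at -0.13, 0.0163 and -0.0162. No gene called both in one of these fits and among the 1712 had the opposite direction. Only quantile normalization and median centring could have given one, since the groups did not overlap for any of the 1712. Of the 177 named genes 177 kept their side of the threshold after median centring, 173 after quantile normalization and 83 without 2,5-DCB replicate 2. The scaling moved the median change of all genes from 0.038 to 0.024 (quantile) or 0.043 (median centring). Genes with dim signals are the least certain, since 0.87% of those in the dimmest of 4 classes were called. For 4 of 15 called genes with several probe sets, another probe set of the gene had the opposite sign.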
